A study of Mus musculus with 6 samples.

Results

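The 9 genes described here encode proteins by which a macrophage takes up, stores and exports iron: Tfrc, Slc11a2 and Slc11a1 (uptake and transport), Fth1, Ftl1 and Ncoa4 (storage and its release), Slc40a1 (export), and Ireb2 and Aco1 (the iron sensors). They were chosen by name, as the rows of the deposited count and FPKM tables that carry these symbols. All 9 were found among 52459 listed genes, and all 9 passed the filter on low counts, with at least 1072 counts in every library. RNA was sequenced from macrophages that had been grown out of the bone marrow of C57BL/6 mice with GM-CSF, a cytokine that turns marrow cells into macrophages and related myeloid cells. The groups were 3 libraries of cells given RIP1i and 3 of cells given DMSO, the solvent control, each overnight from day 7. RIP1i is named in the labels without its compound or dose, and the series title places the work in the study of RIP1 kinase in macrophages and tumour immunity. No genotype or age is given, and the labels do not say whether the replicates were separate cultures or animals, so p-values measure only the spread between these libraries.

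Iron enters most cells bound to transferrin, through the transferrin receptor, and leaves the endosome through the transporter DMT1. Macrophages also gain iron from ingested red cells. What is not used is held inside ferritin shells of heavy and light chains or leaves the cell through ferroportin, the iron exporter of vertebrates. A pair of RNA-binding proteins, IRP1 and IRP2, encoded by Aco1 and Ireb2, sense iron and bind a hairpin called the iron-responsive element. At the end of the Tfrc transcript this binding protects the RNA from decay, and at the start of the ferritin and ferroportin transcripts it blocks translation. Ferritin and ferroportin protein can therefore change when their RNA does not, and sequencing of RNA measures only the RNA. C57BL/6 mice carry a non-functional allele of Slc11a1, so its transcript here does not stand for working transporter.

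The hairpin sequences are shown because the sensors act on these transcripts through them. The untranslated regions of GENCODE M21 protein-coding transcripts (build GRCm38, the same as the mm10 of the submitters' processing notes) were searched on the transcript strand for the letters CNNNNNCAGTGN, followed by 5 bases that pair, with G-T allowed, with the 5 bases after the first C. Of 21741 genes with an untranslated region, 160 (0.736%) held such a match, and 4 of the 9 did. The letters alone, without the pairing, were present in 41.3% of genes. Each window has 30 bases, 5′ to 3′, with the unpaired C and the 6-base loop in capitals.
Fth1 start, chr19:9982731-9982760, plus strand: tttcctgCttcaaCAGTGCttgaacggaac
Ftl1 start, chr7:45459779-45459808, minus strand: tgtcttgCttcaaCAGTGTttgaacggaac
Slc40a1 start, chr1:45925465-45925494, minus strand: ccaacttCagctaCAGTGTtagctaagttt
Tfrc end, chr16:32631218-32631247, plus strand: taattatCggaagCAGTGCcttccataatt
Tfrc end, chr16:32631597-32631626, plus strand: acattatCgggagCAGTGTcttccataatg
Tfrc end, chr16:32631662-32631691, plus strand: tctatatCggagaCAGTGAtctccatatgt
Tfrc end, chr16:32631709-32631738, plus strand: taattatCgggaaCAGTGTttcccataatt
The ferritin and ferroportin matches lie before the coding sequence and the 4 Tfrc matches after it. The stem of Fth1 and that of Ftl1 next to the loop have the same letters. The search found no match in the other 5 genes, which says only that these letters with full pairing were not in their annotated untranslated regions. An iron-responsive element with an imperfect stem would be missed. None of these 5 genes, Slc11a2 among them, is thus shown to lack one.

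Library totals ran from 40264902 to 44862310 counts. Over all tested genes, the chi-square of a pair of libraries per degree of freedom was 29.8 to 36.0 between RIP1i libraries and 12.5 to 18.5 between DMSO libraries. It was lowest, at 11.5, between RIP1i replicate 2 and DMSO replicate 3, so libraries did not group by treatment. Macrophage markers were abundant in every library, at a summed 44032 to 53441 CPM (reads per library size, after edgeR's TMM scaling) in RIP1i and 50700 to 58488 CPM in DMSO, most of it Lyz2. Erythroid markers, whose cells use much iron, summed to 0.769 to 0.966 CPM over 11 genes in RIP1i and 0.971 to 1.08 CPM in DMSO. Stromal markers summed over 9 genes differed most between libraries, at 215, 71.0 and 168 CPM in RIP1i replicates 1 to 3 and 189, 337 and 77.3 CPM in DMSO replicates 1 to 3. RIP1i replicate 2 was thus the lowest and DMSO replicate 2 the highest. The other marker lists summed in RIP1i and DMSO to 1308 to 1439 and 1202 to 1353 CPM (dendritic cells), 1522 to 1997 and 1509 to 2001 CPM (neutrophils), 168 to 202 and 167 to 201 CPM (mast cells and basophils) and 1.59 to 1.79 and 1.62 to 1.92 CPM (lymphocytes). Most of each of these sums came from a single gene: Itgax, Mmp8, Kit and Klrb1c, in that order. Of the dendritic cell markers, Flt3 reached at most 1.22 CPM and Ccr7 19.3 CPM. Of the neutrophil markers, Ly6g reached at most 0.99 CPM and S100a9 263 CPM. The sums therefore do not give the level of a cell type. In bulk RNA, fewer cells of a type and less RNA per cell cannot be told apart.

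With edgeR's quasi-likelihood test over all 14857 genes tested, none of the 9 iron genes passed an adjusted p under 0.05, nor did any other gene (0% called). DESeq2 called 2 genes, neither among the 9. At an unadjusted p under 0.05 stood 2 of the 9, Tfrc and Slc40a1, against 6.21% (923) of all genes. That count was 0 without RIP1i replicate 3, where Tfrc had an edgeR p of 0.0639 and Slc40a1 of 0.0938. It was 1 without any single DMSO library or RIP1i replicate 1, and 1 with the replicate number as a block, where Slc40a1 had 0.0757. Without RIP1i replicate 2 it was 2, but Slc11a2 took the place of Tfrc. The largest differences were thus in the receptor that takes iron in and the exporter that lets it out, both fitted higher in RIP1i by 14.4% and 15.6%. The other 7 had 95% intervals that include no difference. Of the 9, 5 were fitted higher and 4 lower, as were 51% and 49% of all genes, and the median log2 fold change was 0.032, beside 0.0025 over all genes tested. The interval of every member lay within 1.5-fold in either direction, which held for 73.0% of all genes. That share includes weakly expressed genes, whose intervals are wider. The median SE was 0.084 over all tested genes and 0.057 over the 8535 with a mean of at least 10 CPM, as all 9 had.

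**Figure D1:**
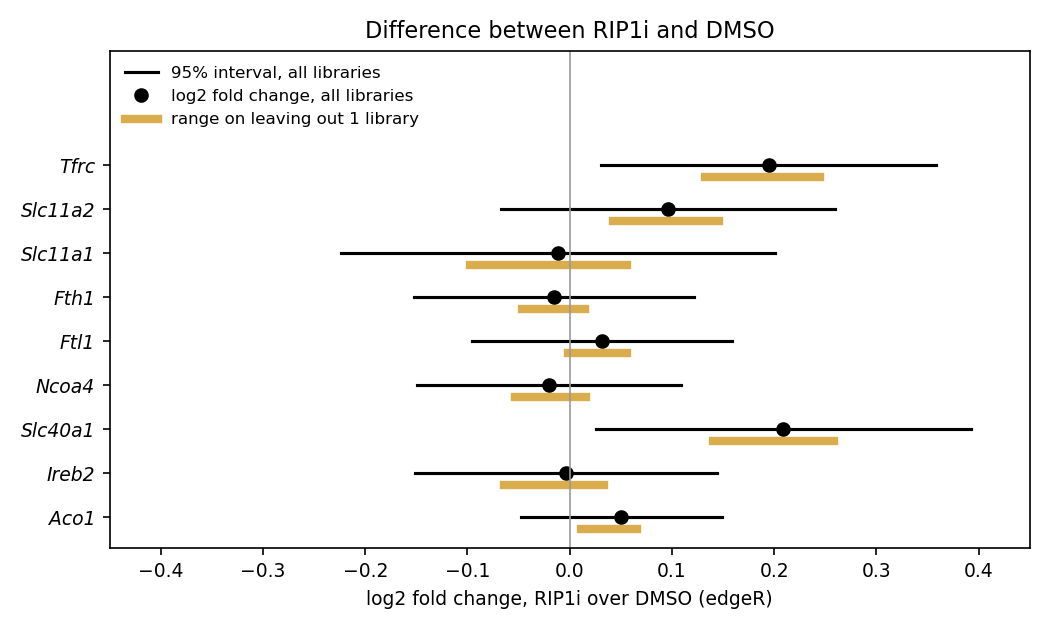
Log2 fold change of RIP1i over DMSO for the 9 genes (x axis), with the 95% interval of the edgeR fit (black) and the range of the fitted value when 1 library at a time is left out (yellow). The intervals of Tfrc, from 0.031 to 0.36, and Slc40a1, from 0.026 to 0.39, lie above 0, while the other 7 cross it.

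Tfrc (chromosome 16, 32608920 to 32632794, plus strand) encodes the transferrin receptor. It was read at 53.8, 62.7 and 59.6 CPM in RIP1i replicates 1 to 3, against 50.5, 48.5 and 54.9 CPM in DMSO replicates 1 to 3. RIP1i replicates 2 and 3 lay above every DMSO library, and RIP1i replicate 1 lay below DMSO replicate 3, so the groups overlapped. The means were 58.7 ± 4.52 CPM in RIP1i and 51.3 ± 3.31 CPM in DMSO (SD, n = 3 each). The log2 fold change was 0.19 ± 0.070 (SE), with an edgeR unadjusted p of 0.0258 and an adjusted p of 0.777. It was 0.092 without RIP1i replicate 2 and DMSO replicate 2, the libraries of lowest and highest stromal marker level, which were also the highest and the lowest in Tfrc, so that leaving them out had to lower it. Cell cycle markers, which mark dividing cells with a high need for iron, summed to 946, 953 and 856 CPM in RIP1i replicates 1 to 3 and 810, 862 and 878 CPM in DMSO replicates 1 to 3. All 10 were fitted higher, where 51% of all genes were, with 3 below 0.05 in unadjusted p, where 6.21% of all genes were. Other marker lists were also one-sided. All 9 stromal and 7 of 8 macrophage markers were fitted lower, where 49% of all genes were, and 7 of 8 tested neutrophil markers higher. Genes of a list can vary together, so such counts are not counts of independent genes. The part of the cell cycle markers in the Tfrc value was not tested. Of the 11 erythroid markers, near 0 in all libraries, 1 passed the filter on low counts, and their part was not tested either.

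Slc40a1 (chromosome 1, 45908068 to 45926523, minus strand) encodes ferroportin, through which macrophages return iron to the blood. Its level was 46.5, 42.6 and 50.7 CPM in RIP1i replicates 1 to 3, against 42.6, 41.5 and 36.9 CPM in DMSO replicates 1 to 3. Every RIP1i library lay above every DMSO library. This held for 1 gene of the 9, while the groups were separate for 13.5% of all tested genes, 7.36% in this direction and 6.18% in the other. The gap was narrow: the lowest RIP1i library, at 42.63 CPM, stood 0.061 CPM above the highest DMSO library, at 42.57 CPM. The groups stayed separate with median-of-ratios scaling, upper-quartile scaling and plain library totals. The means were 46.6 ± 4.04 CPM in RIP1i and 40.3 ± 3.03 CPM in DMSO (SD, n = 3 each), a log2 fold change of 0.21 ± 0.079 (SE), with an edgeR unadjusted p of 0.0306 and an adjusted p of 0.777. It was 0.14 without DMSO replicate 3, the lowest DMSO library, and also 0.14 without RIP1i replicate 3, the highest of all. Without both replicates 2, which differ most in stromal markers, it was 0.28.

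The ratio of the exporter to the receptor, which can be taken per length from FPKM values, did not separate the groups. It was 0.593, 0.467 and 0.585 in RIP1i replicates 1 to 3, against 0.579, 0.589 and 0.461 in DMSO replicates 1 to 3. RIP1i replicate 2 and DMSO replicate 3 were low, and the other 4 libraries lay between 0.579 and 0.593. These 2 libraries also had the lowest stromal marker levels and the highest neutrophil marker levels, at 1997 and 2001 CPM against 1509 to 1788 CPM in the other 4. The part of those cells in the ratio was not tested.

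**Figure D2:**
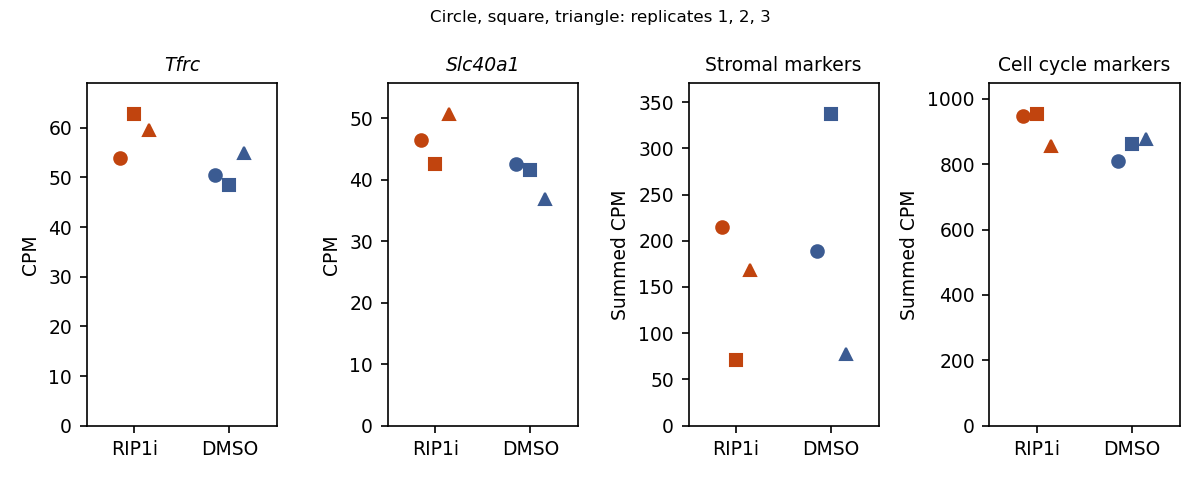
CPM of Tfrc and Slc40a1 and summed CPM of 9 stromal and 10 cell cycle markers (y axes, starting at 0) in each RIP1i library (red) and each DMSO library (blue). Slc40a1 is separate between the groups by 0.061 CPM, Tfrc overlaps, and the stromal level ranges from 71.0 to 337 CPM.

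Slc11a2 and Slc11a1 encode related transporters of divalent metal ions. Slc11a2 (chromosome 15, 100387898 to 100425072, minus strand), which encodes DMT1, was read at 78.4, 70.0 and 81.2 CPM in RIP1i replicates 1 to 3, against 72.1, 76.1 and 66.6 CPM in DMSO replicates 1 to 3. RIP1i replicates 1 and 3 were the highest of the 6, and RIP1i replicate 2 was below 2 DMSO libraries. The log2 fold change was 0.096 ± 0.070 (SE), with an edgeR adjusted p of 0.834. It ran from 0.043 without DMSO replicate 3 to 0.15 without RIP1i replicate 2, and was 0.048 without RIP1i replicate 3 and 0.19 without both replicates 2. The annotation places Gm5475 over 2926 bases of this gene on the opposite strand, and that gene had 0 or 1 count per library.

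Slc11a1 (chromosome 1, 74375195 to 74386062, plus strand) encodes NRAMP1, a transporter of the phagosome membrane known for resistance to intracellular bacteria in mice with a functional allele. The libraries gave 116, 104 and 129 CPM in RIP1i replicates 1 to 3, against 112, 129 and 110 CPM in DMSO replicates 1 to 3. RIP1i replicate 2 was the lowest, while RIP1i replicate 3 and DMSO replicate 2 stood level at the top. Its log2 fold change was -0.011, with the widest interval of the 9 genes, from -0.22 to 0.20. The sign turned without RIP1i replicate 2 or DMSO replicate 2, at 0.055 and 0.056.

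**Figure D3:**
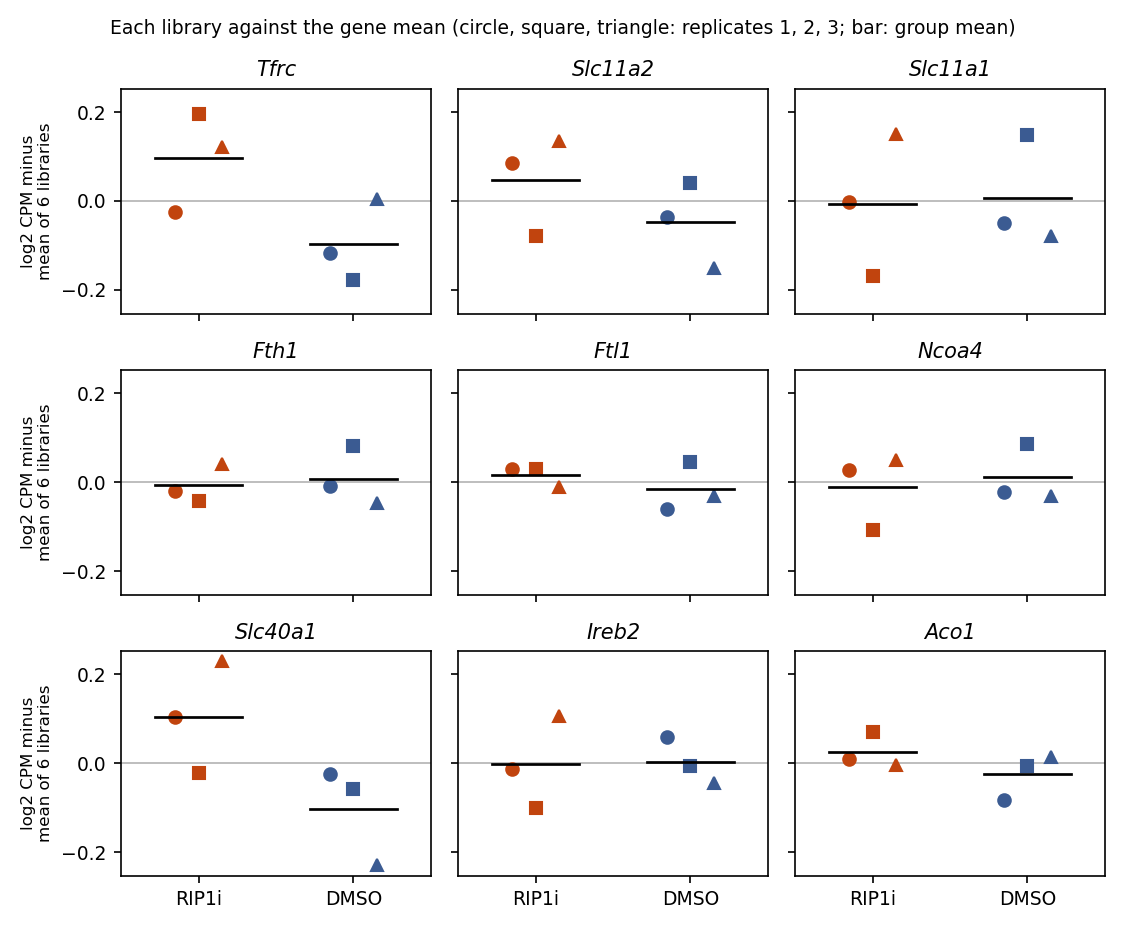
Log2 CPM of each library minus the mean of the 6 libraries (y axis, the same in every panel) for the 9 genes, RIP1i in red and DMSO in blue, with a bar at each group mean. The bars are farthest apart for Slc40a1 and Tfrc, and RIP1i replicate 2 (red square) is the lowest library for Slc11a1, Ncoa4 and Ireb2.

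The ferritin chains were among the most abundant transcripts of the cells. By mean FPKM (reads per length and library), Fth1 ranked 5 and Ftl1 ranked 10 of the 27262 genes with a count. Together they took 1.36, 1.38 and 1.35% of all counts in RIP1i replicates 1 to 3 and 1.34, 1.42 and 1.34% in DMSO replicates 1 to 3. The range of DMSO thus held every RIP1i value.

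Fth1 (chromosome 19, 9980598 to 9985098, plus strand) encodes the heavy chain, which oxidizes iron for storage. It was read at 6741, 6634 and 7033 CPM in RIP1i replicates 1 to 3, against 6789, 7225 and 6612 CPM in DMSO replicates 1 to 3. The log2 fold change was -0.015 with an interval from -0.15 to 0.12, or 0.900 to 1.09 as a fold, and an edgeR adjusted p of 0.973. DMSO held both the highest and the lowest library.

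Ftl1 (chromosome 7, 45457944 to 45459884, minus strand) encodes the light chain, which supports the mineral core. Expression was 6963, 6960 and 6766 CPM in RIP1i replicates 1 to 3, against 6534, 7034 and 6670 CPM in DMSO replicates 1 to 3. Its log2 fold change was 0.032 with an interval from -0.095 to 0.16, and an edgeR adjusted p of 0.937. DMSO again held both extremes, and the highest library exceeded the lowest by 1.08-fold, the smallest range of the 9 genes. The ratio of Ftl1 to Fth1 in FPKM averaged 0.656 ± 0.030 in RIP1i and 0.634 ± 0.016 in DMSO (SD, n = 3 each), with overlapping groups. Ferritin genes have near-identical copies elsewhere in the genome, and how reads shared with them were counted is not given in the sources used here. The copies named Ftl1-ps1, Ftl1-ps2 and Ftl2-ps held 393 to 444, 28 to 40 and 5 to 13 counts per library. That of Ftl1-ps1 was 0.144% of the Ftl1 count. The annotation also places other genes over Ftl1, among them Gm10252 on the opposite strand, with 36 to 55 counts per library.

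Ncoa4 (chromosome 14, 32159865 to 32179855, plus strand) encodes the receptor that carries ferritin to the lysosome, where its iron is freed. It was read at 150, 137 and 152 CPM in RIP1i replicates 1 to 3, against 145, 156 and 144 CPM in DMSO replicates 1 to 3. RIP1i replicate 2 was the lowest of the 6 and DMSO replicate 2 the highest. The log2 fold change was -0.020 with an interval from -0.15 to 0.11, and the sign turned without either of these libraries, at 0.016 and 0.012.

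The sensors stood at different levels. Aco1 (chromosome 4, 40143081 to 40198338, plus strand) encodes IRP1, which is the cytosolic aconitase when it holds an iron-sulfur cluster. Its level was 104, 109 and 103 CPM in RIP1i replicates 1 to 3, against 97.8, 103 and 104 CPM in DMSO replicates 1 to 3. The groups overlapped, and the log2 fold change of 0.051 ± 0.042 (SE) had the smallest error of the 9 genes and an edgeR adjusted p of 0.858.

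Ireb2 (chromosome 9, 54863789 to 54912530, plus strand) encodes IRP2, which is degraded when iron is plentiful, a control of the protein and not of the RNA. The libraries gave 27.1, 25.5 and 29.4 CPM in RIP1i replicates 1 to 3, against 28.4, 27.2 and 26.5 CPM in DMSO replicates 1 to 3. RIP1i held both extremes. The means were 27.3 ± 1.99 CPM in RIP1i and 27.4 ± 0.986 CPM in DMSO (SD, n = 3 each), which gives a log2 fold change of -0.0039 and a 95% interval from -0.15 to 0.14. Per length, Aco1 exceeded Ireb2 by 7.41 to 9.01 times in the RIP1i libraries and by 7.24 to 8.33 times in the DMSO libraries.

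On the FPKM scale, on which genes can be compared, the 9 levels spanned from 7830 ± 190 FPKM in RIP1i and 7930 ± 348 FPKM in DMSO for Fth1 to 2.87 ± 0.191 FPKM in RIP1i and 2.88 ± 0.097 FPKM in DMSO for Ireb2 (SD, n = 3 each). Ftl1 came next to Fth1, at 5130 ± 113 FPKM in RIP1i and 5029 ± 192 FPKM in DMSO. A step of 154-fold then led to Ncoa4, at 32.8 ± 1.70 FPKM in RIP1i and 33.3 ± 1.48 FPKM in DMSO, followed by Slc11a1, Aco1, Slc11a2, Tfrc and Slc40a1. Ncoa4 and Slc11a1, 1.05-fold apart, did not differ beyond their spread, and Ncoa4 was the higher in 5 of 6 libraries. For each other pair of neighbours the ranges over the 6 libraries did not overlap. Tfrc had 9.46 ± 0.748 FPKM in RIP1i and 8.28 ± 0.566 FPKM in DMSO, and the ratio of Fth1 to Tfrc was 894, 755 and 843 in RIP1i replicates 1 to 3, against 961, 1066 and 860 in DMSO replicates 1 to 3. RIP1i replicate 1 lay above DMSO replicate 3, so this ratio overlapped too.

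**Figure D4:**
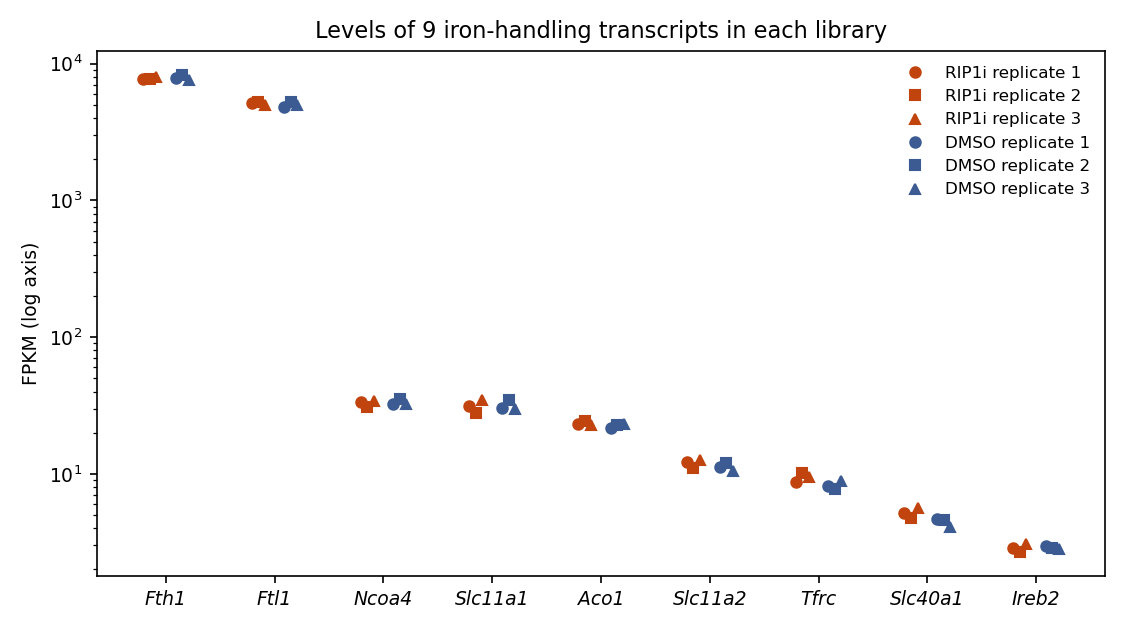
FPKM (log axis) of the 9 genes in each RIP1i library (red, left) and each DMSO library (blue, right), ordered by mean. By mean FPKM over the 6 libraries, Fth1 and Ftl1 lie 154-fold or more above the rest. The libraries of a gene lie close together, with at most a 1.36-fold range.

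The rest of the iron machinery was described with 7 further lists of 84 genes in all, of which 81 were analysed here and 68 passed the filter. None of the 68 passed the edgeR test (0% of all genes did), 34 were fitted higher and 34 lower, and the median log2 fold change was -4.7e-05. At an unadjusted p under 0.05 stood 3 of them (4.41%), 2 higher and 1 lower, beside 6.21% of all genes. The groups were separate for 7 of the 68, beside 13.5% of all genes.

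Of 10 tested genes of other iron uptake and ferrireduction, 8 were fitted lower and 2 higher, with a median log2 fold change of -0.068. Mcoln1, which encodes a lysosomal cation channel that releases iron, was at 80.4 ± 1.33 CPM in RIP1i and 84.5 ± 0.663 CPM in DMSO (SD, n = 3 each), a log2 fold change of -0.071 ± 0.035 (SE) with separate groups. Slc25a37, the mitochondrial iron importer mitoferrin-1, had -0.21 ± 0.16, and the weakly expressed second transferrin receptor Tfr2 had -0.51 ± 0.28. Slc39a14, a transporter of zinc and iron not bound to transferrin, had -0.040 ± 0.070.

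Of 8 tested chaperones, oxidases and controllers of the iron sensors, 5 were fitted lower and 3 higher. Pcbp2, an iron chaperone that loads ferritin, had a log2 fold change of 0.055 ± 0.043 (SE). Herc2, a ubiquitin ligase gene, had 0.087 ± 0.084, and the hypoxia factors Hif1a and Epas1 had -0.024 ± 0.081 and -0.20 ± 0.13. Of 11 tested genes of the hepcidin axis and siderophore binding, 9 were fitted higher and 2 lower, with small differences. Bmpr2, a BMP receptor gene, had 0.12 ± 0.064 and its partner Bmpr1a 0.084 ± 0.088. Smad4, a signal transducer of that pathway, had 0.011 ± 0.053. Slc22a17, which encodes a receptor for lipocalin-2, had -0.18 ± 0.19. Both hepcidin genes, Hamp and Hamp2, were among the 5 genes of this list too weakly expressed to be tested.

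Heme is the main form in which macrophages meet iron from red cells. Hmox1, which encodes the heme oxygenase that frees that iron, was at 268 ± 35.8 CPM in RIP1i and 270 ± 33.7 CPM in DMSO (SD, n = 3 each), which gives a log2 fold change of -0.014 and a 95% interval from -0.28 to 0.26. Its constitutive relative Hmox2 had -0.043 ± 0.044 (SE), and Lrp1, a receptor for heme bound to hemopexin, had -0.085 ± 0.12. Hp, which encodes the hemoglobin-binding haptoglobin, had -0.69 ± 0.47. Its level was 26.3, 12.8 and 29.1 CPM in RIP1i replicates 1 to 3, against 30.7, 62.4 and 17.4 CPM in DMSO replicates 1 to 3. The highest and lowest libraries for Hp were also those for the stromal markers, and the part of stromal cells was not tested. Of the 9 tested genes of this list, 7 were fitted lower and 2 higher. Of 11 tested heme synthesis genes, 6 were fitted higher and 5 lower. Alas1, the first and rate-limiting enzyme outside red cells, had 0.0035 ± 0.084, and Fech, which inserts the iron, had 0.061 ± 0.044. Tmem14c, a mitochondrial porphyrin transporter, had -0.025 ± 0.038, Cpox 0.13 ± 0.11 and Ppox -0.080 ± 0.065, both enzymes of late steps.

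Iron-sulfur clusters decide whether Aco1 acts as aconitase or as RNA-binding sensor. Of 16 tested genes of their assembly, 9 were fitted higher and 7 lower, and 4 had separate groups, 3 higher and 1 lower, where 13.5% of all genes did. Lyrm4, a subunit of the cysteine desulfurase complex, was at 14.4 ± 0.259 CPM in RIP1i and 13.1 ± 0.601 CPM in DMSO (SD, n = 3 each), a log2 fold change of 0.15 ± 0.059 (SE) with an edgeR adjusted p of 0.777. Hscb, a co-chaperone of cluster transfer, was at 7.97 ± 0.546 CPM in RIP1i and 9.03 ± 0.028 CPM in DMSO (SD, n = 3 each), a log2 fold change of -0.18 ± 0.076 (SE) with the same adjusted p. Its partner Hspa9 had 0.035 ± 0.038, the scaffold gene Iscu -0.073 ± 0.071, and Ciao1, of the cytosolic assembly pathway, 0.090 ± 0.043.

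Of 4 tested other mRNAs for which an iron-responsive element has been described in some species, 3 were fitted higher and 1 lower. Cdc14a, a phosphatase gene, was read at 10.4, 11.4 and 9.88 CPM in RIP1i replicates 1 to 3, against 9.29, 8.66 and 8.97 CPM in DMSO replicates 1 to 3. The groups were separate, as they were for 13.5% of all genes. Its log2 fold change was 0.23 ± 0.076 (SE), with an edgeR unadjusted p of 0.0170 and an adjusted p of 0.777. An unadjusted p under 0.05 was found for 6.21% of all genes. The kinase gene Cdc42bpa had 0.18 ± 0.12, and Epas1, the gene fitted lower, had -0.20 ± 0.13. Hao1, with only 4 to 12 counts per library, had 0.60 ± 0.42.

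**Figure D5:**
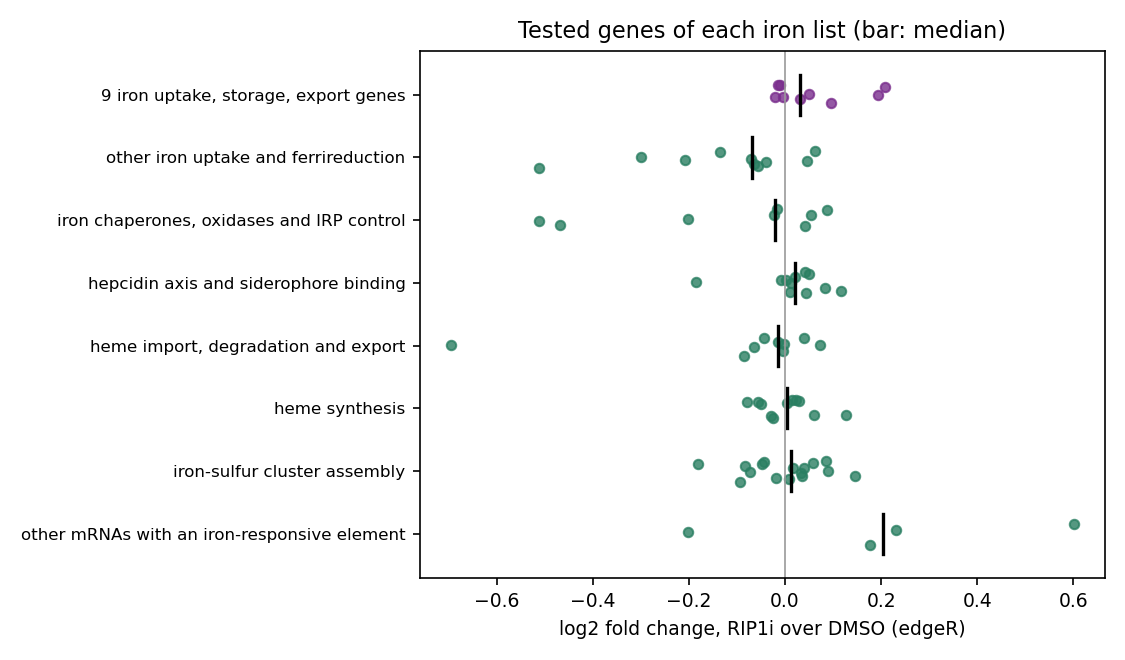
Log2 fold change of RIP1i over DMSO (x axis) of each tested gene in the 9-gene set (purple) and in 7 further iron lists (green), with a bar at each median. The medians of 7 of the 8 rows lie between -0.068 and 0.032. The median of the 4 other mRNAs for which an iron-responsive element has been described in some species lies at 0.20. These 4 genes range from -0.20 for Epas1 to 0.60 for Hao1, which had only 4 to 12 counts per library.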

How the data were processed

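The 3 RIP1i and 3 DMSO RNA-seq libraries were grouped by the treatment in their titles. The authors deposited raw read counts per gene and FPKM values for the same genes. The submitters' processing notes name the build mm10 and, in no stated order or role, DESeq2 1.14.0, Subread 1.4.6-p3, featureCounts, STAR 2.5.3a and CASAVA 1.8.4. The annotation and strand setting were not given in the sources used here. The FPKM values hold the same reads as the counts under another scaling. Counts were filtered with filterByExpr (minimum count 10, minimum total 15), scaled by TMM and tested, 2-sided, for the treatment term alone with edgeR 4.0.16 (R 4.3.3, quasi-likelihood). Benjamini-Hochberg adjustment ran over all 14857 genes. SE came from the F statistic, and 95% intervals from the t distribution. The procedure was first tested on simulated data. Alternatives were 2 other scalings, 2 other filters, DESeq2 1.42.0, limma-voom and limma-trend (limma 3.58.1), a replicate block and left-out libraries. The named genes are the 9, and from each further list the 3 smallest p and the 2 highest CPM. Hao1, Ltf and Lcn2 are also named, because their intervals are wide. Members and lists were chosen with earlier results of these data known. Gene positions and transcript sequences came from GENCODE M21 (GRCm38). Some further iron genes are not reported here.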

Additional observations from a re-analysis of the deposited data

How the results depend on the processing

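None of the 9 genes passed the adjusted threshold under any alternative run, with adjusted p from 0.602 to 1 over genes and settings. The count of genes called over all tested was 0 with edgeR under both other scalings, both other filters, thresholds of 0.01 and 0.1 and the replicate block, and from 0 to 0 on leaving out 1 library. It was 2 with DESeq2 and 46 with limma-trend on log2(FPKM + 1) without a filter, where all 52459 genes were tested, those without a count included. None of these calls was 1 of the 9 genes. The cause of that rise was not tested. Tfrc, Slc11a2, Slc40a1 and Aco1 kept their sign under every alternative run. On leaving out 1 library, the log2 fold change ran from 0.13 to 0.24 for Tfrc, 0.043 to 0.15 for Slc11a2, 0.14 to 0.26 for Slc40a1, 0.011 to 0.066 for Aco1, -0.097 to 0.056 for Slc11a1, -0.047 to 0.015 for Fth1, -0.0020 to 0.056 for Ftl1, -0.054 to 0.016 for Ncoa4 and -0.065 to 0.033 for Ireb2. The sign also turned without both replicates 2 for Slc11a1 (0.13), Fth1 (0.027), Ncoa4 (0.052) and Ireb2 (0.027), where the cause was not tested. The order of the 9 levels was the same for 9 of 9 genes with TMM library sizes. Whether the replicate numbers pair the libraries is not known from the labels. Deviations from the group means correlated at 0.0058, -0.53 and -0.48 for same-numbered libraries. Between differently numbered libraries the correlations ran from -0.31, for RIP1i replicate 1 and DMSO replicate 3, to 0.60, for RIP1i replicate 2 and DMSO replicate 3. With so few libraries, which also differ in marker levels, these correlations cannot decide it. With the replicate number as a block, the log2 fold change was 0.19 for Tfrc and 0.21 for Slc40a1. The unadjusted p was under 0.05 for 0 of the 9 genes with limma-trend on log2(FPKM + 1) without a filter. Counting error alone gives a coefficient of variation of 2.90% for Ireb2 in DMSO, where 3.60% was observed. This was the closest match among the 9 genes in either group. For Ireb2 in RIP1i counting error gives 2.98%, where 7.30% was observed. For Fth1 in DMSO it gives 0.183%, where 4.59% was observed.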
